A study of Mus musculus with 12 samples.

Results

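The circadian clock regulators described here are 8 genes measured in mouse CD4+ T cells: Bmal1 (listed by the array annotation as Arntl), Cry2, Ciart, Bhlhe40, Bhlhe41, Nr1d2, Nfil3 and Dbp. They were matched by gene symbol among the 16426 genes that the Affymetrix Mouse Gene ST 1.0 table names singly, and each had a single such probe set. The 8 were selected on their measured intensities over all 6 groups, with earlier results of these data known. Their differences between groups are therefore descriptions. Values are linear intensities after the submitters' normalization, and differences are on the log2 scale with the standard error (SE) of a limma fit to all 12 arrays. A gene is said to pass, or to be called, where limma's Benjamini-Hochberg adjusted p was under 0.05 among the 8918 genes that were above the median of their own array on at least 2 arrays.

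RNA was hybridised to 12 arrays, 2 for each of 6 groups. The first 3 groups were regulatory T cells (Tregs), sorted in 2 rounds as CD4+ CD25high cells from mice with the Foxp3(M354/M354), Foxp3(M176/M176) or Foxp3(WT/WT) genotype. The other 3 were WT conventional CD4+ T cells transduced in vitro with a retrovirus carrying the M354 mutant, the M176 mutant or WT Foxp3, and sorted as Thy1.1high. All came from spleens of male C57Bl/6 mice aged 6 weeks. The samples used here include no transduction without Foxp3, the amino acids that M354 and M176 change are not stated, and the labels leave unsaid if both arrays of 1 group had their own mouse or culture. The spread between arrays may thus be technical, and 2 arrays a group limit the precision.

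Foxp3, which defines the Treg lineage, read 3442 and 3321 in M176 Tregs and between 5233 and 6163 on the other arrays. The 5 markers of CD4+ T cells in the table summed to between 20230 and 25280 on every array, although in M176 Tregs Cd3d was higher (1.16) and Cd3e lower (-0.48) than in WT Tregs. Treg markers (5 of 7 in the table, Foxp3 among them) summed to 20240 and 19520 in M354 Tregs and 15470 and 15140 in M176 Tregs, against 22670 and 21790 in WT Tregs. In transduced cells they summed to 15810 and 17280 with M354 and 18600 and 18600 with M176, against 21840 and 21820 with WT. Their part in the values of the clock regulators was not tested. The mean log2 level of 36 small nucleolar and Cajal body RNA genes set the M176 Treg arrays apart, at 9.98 and 10.04, against 8.66 to 8.87 on the other Treg arrays and 8.61 to 9.64 on the transduced arrays. B cell markers (9 of 10 in the table) summed to 4224 in WT Treg replicate 2 and to 1737 to 2184 on the other Treg arrays. The dimmest of the 9 averaged between 39.7 and 98.7 in each group, where array medians lay between 102 and 117, and none is listed at 0. On the transduced arrays the same sum lay between 3976 and 4521. In bulk RNA, a change in the number of cells that carry a transcript and a change in transcript per cell cannot be told apart.

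The clock is a transcriptional feedback loop present in nearly every cell. The heterodimer of BMAL1 and CLOCK activates genes through E-box sequences, among them its own repressors, the PER and CRY proteins, CIART (also called CHRONO) and the paired factors encoded by Bhlhe40 and Bhlhe41. A stabilising loop sets the level of Bmal1 through the REV-ERB repressors, one of which is encoded by Nr1d2, and the ROR activators. Another arm acts at D-box sequences, where DBP activates and NFIL3 represses. In T cells, Bhlhe40 and Nfil3 are also known as regulators of cytokine genes, and Bhlhe40 is induced by activation. The labels do not give the hour at which cells were taken, and its part in any result was not tested.

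Promoter sequence was available from RefSeq (GRCm38.p6) for 7 of the 8 genes, all but Bhlhe40, as 8 windows running from 250 bases before to 50 after a transcription start. The Ciart promoter is shown because Ciart had the widest difference between mutant and WT Foxp3 among these genes and because its E-boxes are clustered. The Bhlhe41 promoter is shown beside it as the only other one of the 7 with an E-box. Capitals mark the E-box CACGTG, which reads the same on both strands, and both sequences run 5′ to 3′ on the minus strand and stop before the start of the gene. The Ciart sequence covers chr3:95882258-95882478 and the Bhlhe41 sequence chr6:145865421-145865670.
Ciart: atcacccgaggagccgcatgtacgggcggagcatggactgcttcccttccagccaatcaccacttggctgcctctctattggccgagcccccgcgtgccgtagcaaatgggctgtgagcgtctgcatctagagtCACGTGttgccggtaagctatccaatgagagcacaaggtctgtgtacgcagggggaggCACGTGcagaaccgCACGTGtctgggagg
Bhlhe41: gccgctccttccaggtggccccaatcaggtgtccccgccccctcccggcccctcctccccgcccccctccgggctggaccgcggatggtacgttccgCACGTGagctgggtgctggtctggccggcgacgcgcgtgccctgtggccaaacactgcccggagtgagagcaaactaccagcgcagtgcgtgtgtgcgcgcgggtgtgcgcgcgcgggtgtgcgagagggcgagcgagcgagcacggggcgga

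The 3 E-boxes of Ciart begin 87, 29 and 15 bases from the end of the printed sequence, which stops where the gene record begins. The transcription start of the RefSeq window lies 29 bases further on, so that they begin 116, 58 and 44 bases before it. For Bhlhe41 the end of the print and the window's start coincide, and its E-box begins 153 bases before them. Of 32851 promoter windows of the same length, 7.15% held at least 1 such E-box and 0.0883% (29 windows) held 3 or more. Both strands were also searched for the D-box TTATGTAA, found in none of the windows of these genes and in 0.938% of all windows. An 11-base RORE sequence, the kind of element at which REV-ERB and ROR proteins act, was found in 1 of the 2 windows of Bmal1, beginning 26 bases after its start, in none of the windows of the other 6 genes and in 7 of all 32851 windows. A match is a run of letters and says nothing of binding in these cells.

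**Figure D1:**
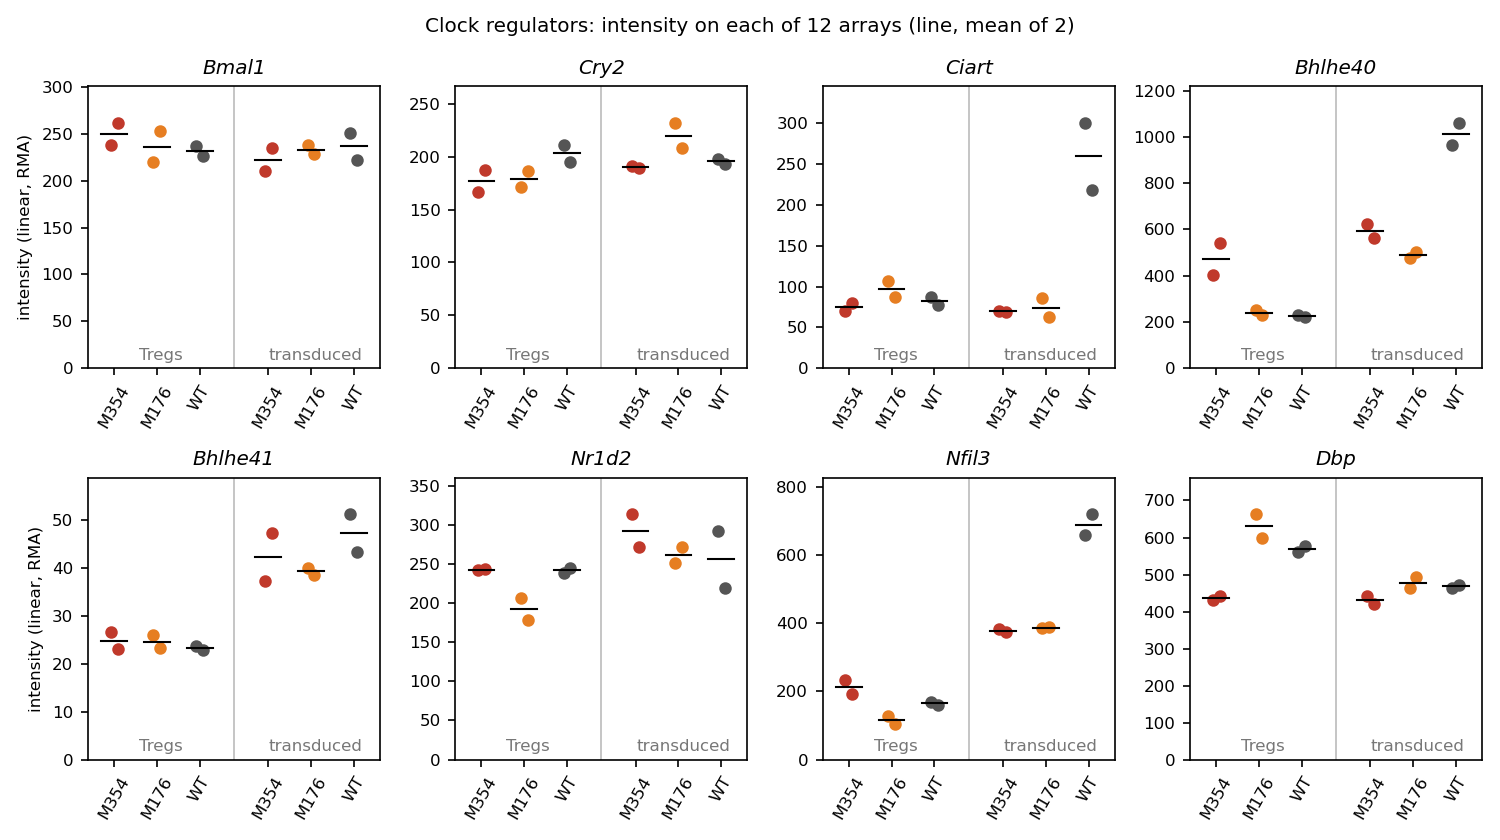
Intensity (linear scale, vertical axis from 0) of the 8 clock regulators on each of the 12 arrays; points are arrays, horizontal lines are means of 2, and each panel has its own scale. Ciart, Bhlhe40 and Nfil3 were highest on both arrays of WT-transduced cells, while Bmal1 stayed between 210.0 and 262 everywhere.

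Bmal1 (probe set 10556463, chromosome 7), the activating subunit, read 238 and 262 in M354 Tregs and 219.6 and 253 in M176 Tregs, against 237 and 226 in WT Tregs. In transduced cells it read 210.0 and 234 with M354 and 238 and 228 with M176, against 251 and 222 with WT Foxp3. The highest array was 1.25 times the lowest, and each group overlapped its neighbour in the order of levels. M354 Tregs lay above WT Tregs without overlap, by only 0.11 (SE 0.13). Neither mutant passed against WT in either system, and the 95% intervals of these 4 differences reached from -0.37 to 0.39 on the log2 scale.

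Cry2 (chromosome 2), a repressor of BMAL1 and CLOCK, also varied little. It read 167 and 188 in M354 Tregs and 171 and 186 in M176 Tregs, against 212 and 196 in WT Tregs, so that both mutants lay below WT without overlap but by only -0.20 and -0.19 (SE 0.13 each), and neither passed. In transduced cells Cry2 read 191.3 and 189.7 with M354 and 232 and 208 with M176, against 198 and 193 with WT. No Cry2 comparison passed.

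Ciart (probe set 10500272, chromosome 3), which encodes a repressor that binds BMAL1, was high in a single group. It read 70.5 and 68.9 in M354-transduced cells and 85.9 and 62.3 in M176-transduced cells, against 301 and 219 in WT-transduced cells. Both mutant groups lay far below WT and overlapped each other. In Tregs it read 70.3 and 80.2 with M354 and 107 and 87.6 with M176, against 87.7 and 77.7 with WT. In the order of levels, each group below WT-transduced cells overlapped the next.

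Ciart was above the median of its own array on 3 of the 12 arrays, both of WT-transduced cells and M176 Treg replicate 1, and that is how it passed the filter on dim genes. Passing through the group in which it is high meant that it had to differ there. It fell in both mutants, with log2 differences from WT of -1.88 (SE 0.17) in M354-transduced and -1.81 (SE 0.17) in M176-transduced cells. The WT level was 3.68 times the M354 level and 3.51 times the M176 level. These differences ranked 3 and 4 from the lowest among the 8918 tested genes. The mutants differed from each other by -0.07 (SE 0.17).

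Bhlhe40 (probe set 10540472, chromosome 6), a basic helix-loop-helix repressor at E-boxes, moved in opposite directions in the 2 cell systems. It read 405 and 540.0 in M354 Tregs and 250.1 and 230.1 in M176 Tregs, against 229.5 and 220.5 in WT Tregs. M354 Tregs stood well clear of the other Tregs, and M176 and WT Tregs were next to each other without overlap. Bhlhe40 rose in M354 Tregs by 1.06 (SE 0.14), 2.08 times the WT level and rank 20 from the highest of all tested genes, whereas M176 Tregs lay 0.09 (SE 0.14) above WT and did not pass. M354 Tregs were 0.96 (SE 0.14) above M176 Tregs, a difference that passed.

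In transduced cells Bhlhe40 read 622 and 563 with M354 and 477 and 503 with M176, against 964 and 1061 with WT. The 3 groups did not overlap. It fell with M354 (-0.77, SE 0.14) and with M176 (-1.05, SE 0.14), while the mutants differed from each other by 0.27 (SE 0.14), which did not pass. Without M354-transduced replicate 2 or WT-transduced replicate 2 the M354 difference was no longer called, at -0.70 in both cases. The order of levels ran from WT-transduced cells down to WT Tregs, with only M176-transduced cells and M354 Tregs overlapping as neighbours.

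Bhlhe41 (probe set 10549276, chromosome 6), the paralogue of Bhlhe40, was below the median of the array on all 12 arrays and did not pass the filter. It read 26.5 and 23.1 in M354 Tregs and 25.9 and 23.2 in M176 Tregs, against 23.7 and 22.9 in WT Tregs. The transduced cells read 37.2 and 47.2 with M354 and 40.0 and 38.6 with M176, against 51.1 and 43.2 with WT. All transduced arrays lay above all Treg arrays. Within each system the groups overlapped, except that M176-transduced cells lay below WT-transduced cells by -0.26 (SE 0.14) in a fit with no filter, which did not pass. In the same fit WT Tregs differed from WT-transduced cells by -1.01 (SE 0.14), which passed.

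Nr1d2 (probe set 10417734, chromosome 14), which encodes REV-ERB beta, read 242 and 243 in M354 Tregs and 207 and 179 in M176 Tregs, against 239 and 245 in WT Tregs. Both M176 Treg arrays were the lowest of the 12, at -0.33 (SE 0.15) against WT, which did not pass. With quantile normalization that difference passed, at -0.38. Among transduced cells Nr1d2 read 313 and 271 with M354 and 251 and 272 with M176, against 292 and 219.5 with WT. These groups overlapped.

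Nfil3 (probe set 10409278, chromosome 13), the D-box repressor, differed with both the cell system and the allele. It read 233 and 194 in M354 Tregs and 129 and 104 in M176 Tregs, against 169.9 and 159.5 in WT Tregs, with no overlap between groups. Nfil3 fell in M176 Tregs (-0.51, SE 0.14), whereas M354 Tregs lay 0.37 (SE 0.14) above WT without passing. M354 Tregs were 0.87 (SE 0.14) above M176 Tregs, which passed. The call in M176 Tregs was lost when M176 Treg replicate 2 was left out (-0.36), when WT Treg replicate 1 was left out (-0.46) and with the small nucleolar RNA level as a covariate (-0.54, SE 0.23).

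In transduced cells Nfil3 read 382 and 373 with M354 and 385 and 388 with M176, against 658 and 719 with WT. The mutant arrays spanned a narrow range well below both WT arrays. Nfil3 fell with M354 (-0.86) and with M176 (-0.83, SE 0.14 each), and the mutants differed by -0.04 (SE 0.14). The M176 difference was not called without either M176-transduced array, though its size stayed at -0.82 without replicate 1 and -0.83 without replicate 2.

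Dbp (probe set 10553092, chromosome 7), the activator that shares D-boxes with NFIL3, varied among Tregs and little among transduced cells. It read 432 and 442 in M354 Tregs and 663 and 599 in M176 Tregs, against 562 and 576 in WT Tregs, and these groups did not overlap. M354 Tregs differed from WT by -0.38 and M176 Tregs by 0.15 (SE 0.12 each), and neither passed. Between the mutants Dbp was lower in M354 than in M176 Tregs by -0.53 (SE 0.12), which passed. That call was lost without M176 Treg replicate 1 (-0.45) and with the small nucleolar RNA covariate (-0.415, SE 0.21). With transduction Dbp read 442 and 420.1 for M354 and 463 and 493 for M176, against 464 and 472 for WT. Only M354 lay below WT without overlap there, by -0.12 (SE 0.12).

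**Figure D2:**
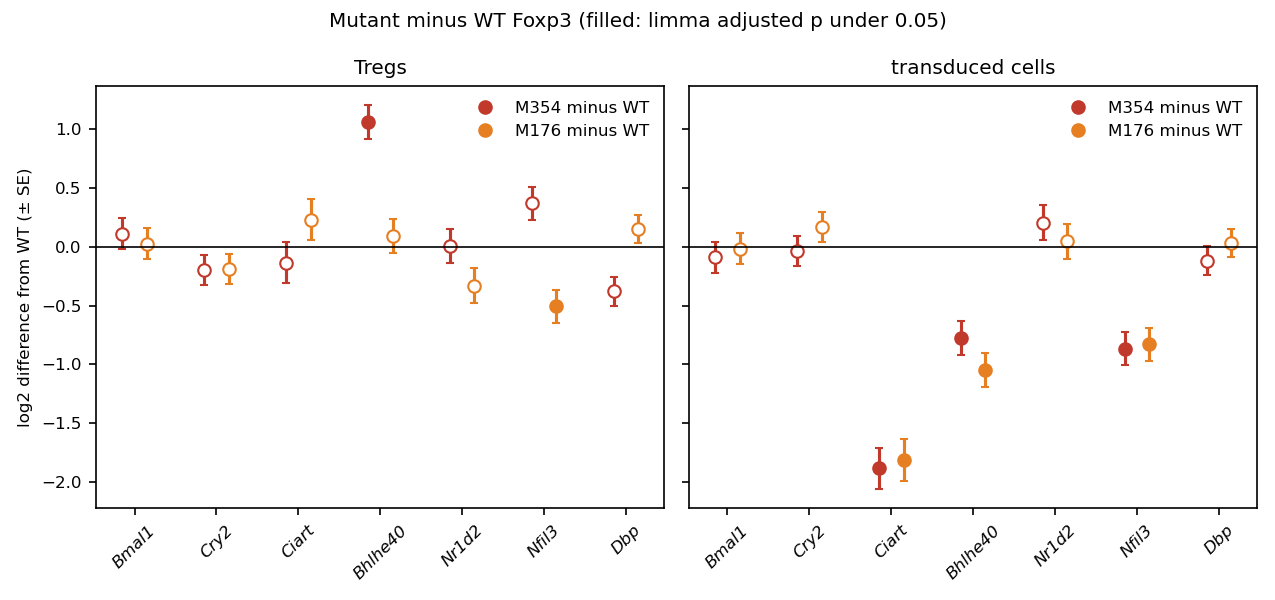
Log2 difference of each mutant from WT Foxp3 (vertical axis) for the 7 tested clock regulators, in Tregs on the left and in transduced cells on the right; bars are SE and filled points passed limma's adjusted p under 0.05. In transduced cells Ciart, Bhlhe40 and Nfil3 lay below 0 with both mutants, whereas in Tregs Bhlhe40 lay above 0 with M354.

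Set against all genes tested, 7 of the 8 regulators passed the filter, and the share of all 8918 genes called is given beside each count. Since the members were chosen on these values, nothing is read from the shares. In M354-transduced cells 3 were lower than with WT and 0 higher, where 1.33% of all genes were called and 0.976% were called lower. In M176-transduced cells the same 3 genes, Ciart, Bhlhe40 and Nfil3, were lower and 0 were higher, where 0.516% of all genes were called and 0.505% were called lower. Both comparisons use the same WT-transduced arrays, so their values are not independent. The median difference over the 7 was -0.12 with M354 and -0.02 with M176, beside 0.01 and -0.01 over all genes, with Bmal1, Cry2, Nr1d2 and Dbp between -0.12 and 0.20.

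Between M354- and M176-transduced cells 0 of the 7 passed limma's threshold, where 0.0785% of all genes did, and 0 of the 7 had an unadjusted p under 0.05. The widest of these differences, that of Bhlhe40, had a 95% interval from -0.03 to 0.58. For Ciart the interval reached from -0.44 to 0.30 and for Nfil3 from -0.33 to 0.26.

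In Tregs 1 of the 7, Bhlhe40, was called with M354 against WT, where 1.81% of all genes were called in either direction. With M176 against WT 1 of the 7, Nfil3, was called, where 24.7% of all genes were called. Between M354 and M176 Tregs 3 of the 7 were called, Bhlhe40 and Nfil3 higher and Dbp lower in M354, where 30.8% of all genes were called. These 3 comparisons share arrays with one another.

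**Figure D3:**
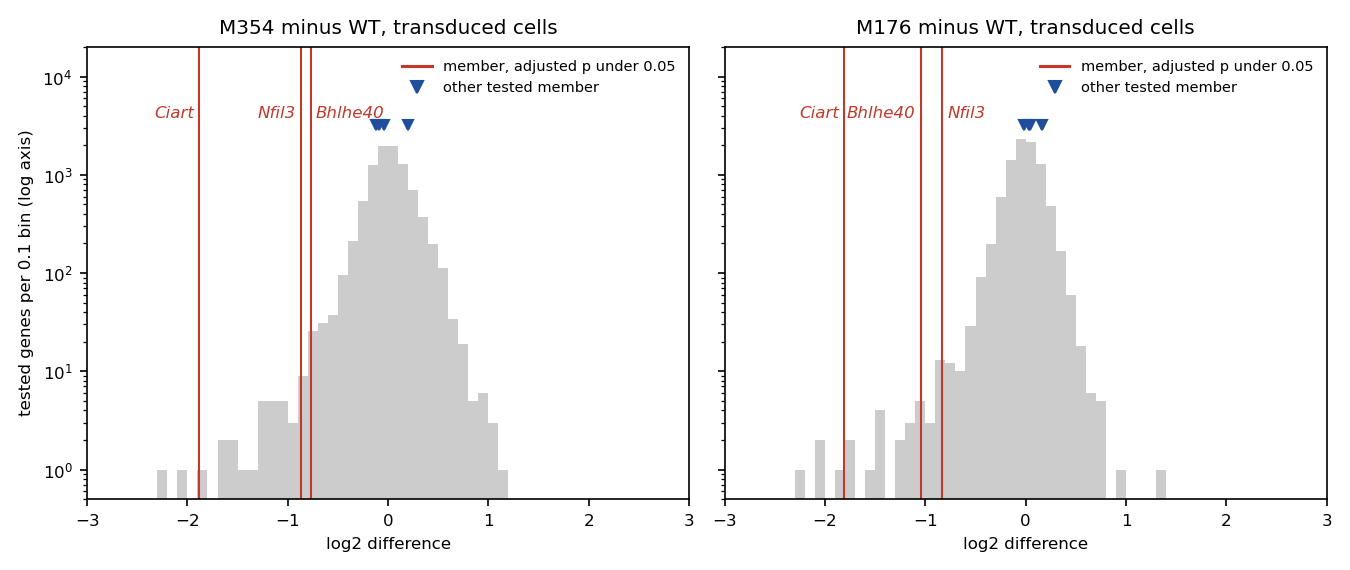
Distribution of log2 differences of all 8918 tested genes (bars, genes per bin of 0.1, log axis) for M354 (left) and M176 (right) minus WT in transduced cells. Red lines mark Ciart, Bhlhe40 and Nfil3, which lay in the lower tail of both, and triangles mark the other 4 tested clock regulators, which lay near the centre.

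The effect of M354 differed between Tregs and transduced cells for 3 of the 7 genes, where 1.08% of all genes were called in that test. The difference of effects (Tregs minus transduced cells) was 1.83 (SE 0.20) for Bhlhe40, 1.74 (SE 0.25) for Ciart and 1.23 (SE 0.20) for Nfil3. The value of Ciart, here and for M176 below, draws on the WT-transduced arrays through which Ciart passed the filter. Bhlhe40 was higher than WT in M354 Tregs and lower than WT in M354-transduced cells. Ciart was near the WT level in M354 Tregs, and Tregs of every genotype had little Ciart.

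For M176 the effects differed for 2 of the 7 genes, Ciart at 2.04 (SE 0.25) and Bhlhe40 at 1.14 (SE 0.20), where 5.49% of all genes were called. Nfil3, lower with M176 in both systems, differed by 0.32 (SE 0.20) and did not pass. With the small nucleolar RNA covariate the M176 difference for Bhlhe40 was not called (0.96, SE 0.24).

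WT Tregs and WT-transduced cells, which differ in origin, culture and source of Foxp3, were separated by the same 3 genes, where 30.2% of all genes were called. All 3 were lower in WT Tregs, Bhlhe40 by a log2 difference of -2.17 (SE 0.14), Nfil3 of -2.06 (SE 0.14) and Ciart of -1.64 (SE 0.17). The value of Ciart again draws on the WT-transduced arrays through which it passed the filter, so it is not independent of the filter. Dbp was 0.28 (SE 0.12) higher in WT Tregs and did not pass, but it did with quantile (0.44) and cyclic loess normalization (0.41). Bmal1, Cry2 and Nr1d2 differed by -0.03, 0.05 and -0.07.

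The wider clock machinery was examined through a list of 43 genes, counted whole. Of these, 27 were in the table and 23 passed the filter. Clock itself, the partner of BMAL1, had its largest difference from WT in M176 Tregs, at -0.31, and passed in no comparison. Of the 23, 0 were called by limma in M354-transduced cells, 0 in M176-transduced cells and 0 in M354 Tregs, each against WT. Of all genes, 1.33%, 0.516% and 1.81% were called there, so counts of 0 among 23 lie near those shares. At an unadjusted p under 0.05 the counts were 4, 3 and 2 of the 23, in the same order. Wee1, at 0.48 (SE 0.15) above WT in M354 Tregs, passed there with quantile (0.54) and cyclic loess normalization (0.57).

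In M176 Tregs 3 of the 23 passed, a share of 13.0% beside 24.7% of all genes, and the median of the 23 was -0.19, beside -0.04 over all genes. Wee1, a kinase that restrains entry into mitosis and a known clock output, fell to 185 ± 7.67 in M176 Tregs, against 342 ± 44.6 in WT Tregs (SD, n = 2 each; log2 -0.88, SE 0.15, limma adjusted p = 0.000422). Rora, which encodes the ROR activator that acts opposite REV-ERB proteins, fell to 202 ± 19.4, against 294 ± 38.7 (log2 -0.54, limma adjusted p = 0.0172). Tipin, which encodes the partner of TIMELESS at replication forks, rose to 204 ± 26.1, against 91.6 ± 23.0 (log2 1.17, limma adjusted p = 0.00192). Quantile normalization called 5 of the 23 here, 1 higher and 4 lower.

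Between M354 and M176 Tregs 3 of the 23 passed, again 13.0%, beside 30.8% of all genes. Wee1 (log2 1.36), Rora (0.83) and Prkca (0.59), a protein kinase C gene, were higher with M354 (limma adjusted p = 5.31e-06, 0.000698 and 0.00227). Between WT Tregs and WT-transduced cells 9 of the 23 passed, 1 higher and 8 lower in Tregs, a share of 39.1% beside 30.2% of all genes. Crem, which encodes a cyclic AMP responsive repressor, read 131 ± 18.8 in WT Tregs, against 364 ± 54.1 in WT-transduced cells (SD, n = 2 each; log2 -1.47, limma adjusted p = 1.74e-06). Tipin (-1.08), Rora (-0.98) and Wee1 (-0.61) were lower in the same way, as were Nampt (-0.59), the rate-limiting enzyme of NAD salvage, and Kdm5a (-0.49), a histone demethylase.

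**Figure D4:**
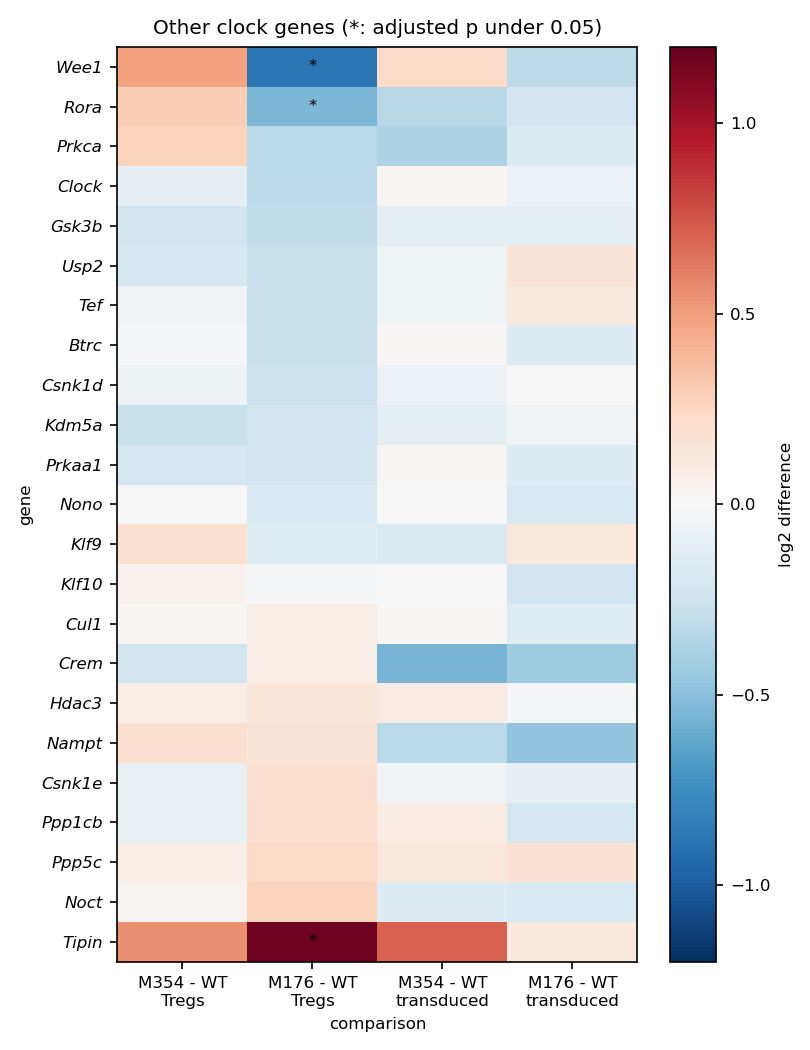
Log2 difference from WT Foxp3 (colour) for the 23 tested genes of the wider clock list (rows) in 4 comparisons (columns); asterisks mark limma adjusted p under 0.05. Asterisks stand only in the column of M176 Tregs, at Wee1, Rora and Tipin.

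Genes that mark the activation state moved in some of the same comparisons. Of 20 early receptor response genes, 5 were lower and 0 higher in M354-transduced than in WT-transduced cells (median -0.36, beside 0.01 over all genes). There 1.33% of all genes were called, and 11 of the 20 had an unadjusted p under 0.05. In M176-transduced cells 0 were called by limma (median -0.23, beside -0.01), where 0.516% of all genes were called. With M176, 8 of the 20 had an unadjusted p under 0.05. The widest in M354-transduced cells were Fosl2 (-0.80), Jun (-0.75) and Fos (-0.74), which encode AP-1 subunits. In M354 Tregs, where Bhlhe40 rose, 2 of the 20 were lower and 0 higher, beside 1.81% of all genes called. In M176 Tregs 5 were higher and 2 lower, a share of 35.0% beside 24.7% of all genes. The part of activation state in the values of the clock regulators was not tested.

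Of 12 genes known to respond to glucocorticoids, 3 were lower and 0 higher in M354-transduced cells and likewise in M176-transduced cells, each against WT, where 1.33% and 0.516% of all genes were called. The list's medians were -0.13 with M354 and -0.05 with M176, beside 0.01 and -0.01 over all genes. They were Mt2, Mt1 and Errfi1 in both, with Mt2 at 946 ± 199 with M354 and 884 ± 46.3 with M176, against 2485 ± 40.9 with WT (SD, n = 2 each). In M354 Tregs 3 of the 12 were lower and 0 higher, and in M176 Tregs 1 was higher and 2 lower, beside 1.81% and 24.7% of all genes called. Tsc22d3, a glucocorticoid-induced leucine zipper, differed from WT Tregs by -1.08 in M354 Tregs and 0.48 in M176 Tregs. Il7r, the interleukin-7 receptor gene, was lower in both (-0.79 and -0.65). Txnip was lower in M354 Tregs (-0.85) and Errfi1 in M176 Tregs (-0.42). Of 19 proliferation genes, 4 were higher in M354 Tregs and 10 lower in M176 Tregs, with 0 called the other way, beside 1.81% and 24.7% of all genes called. The medians of the 19 were 0.55 in M354 Tregs and -0.94 in M176 Tregs, beside -0.04 over all genes in each. Ccna2 differed by -2.66 and Mki67 by -2.15 in M176 Tregs. In M354-transduced cells 3 were higher and 0 lower, beside 1.33% of all genes called, and 13 of the 19 had an unadjusted p under 0.05. With M176 limma called 0, beside 0.516% of all genes, and 0 had an unadjusted p under 0.05. The part of these groups in the values of the clock regulators was not tested.

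Summed markers of other cells differed between some Treg arrays. B cell marker sums were 1831 and 4224 in the WT Treg replicates 1 and 2, which read 229.5 and 220.5 for Bhlhe40, 169.9 and 159.5 for Nfil3 and 562 and 576 for Dbp. The Bhlhe40 difference of M354 from WT Tregs was 1.08 without WT Treg replicate 1 and 1.03 without replicate 2. The part of B cells in these values was not tested.

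Markers of CD8 T and NK cells (5 of 6 in the table) summed to 3077 and 2637 in M354 Tregs and 1749 and 1427 in M176 Tregs, against 1853 and 1652 in WT Tregs. Most of the sum was Nkg7, a cytotoxic granule gene, at 2249 ± 308 in M354 Tregs, against 1111 ± 102 in WT Tregs (SD, n = 2 each). Of the 3 markers tested, limma called only Nkg7 there (log2 1.01), where 1.81% of all genes were called. Cd8a and Cd8b1, also tested, differed from WT Tregs by no more than -0.10, and neither was higher. In transduced cells the sum lay between 3769 and 4611. The part of such cells in the Treg values was not tested.

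Pearson's r of log2 intensity over the 12 arrays was used to name the genes whose pattern was most like that of each regulator. It is a description, since arrays share their groups and some groups differ widely. Of all genes, 30.2% were called between WT Tregs and WT-transduced cells and 30.8% between M354 and M176 Tregs. For Nfil3 they were Gpld1 (r = 0.99), Egln3 (0.99), a prolyl hydroxylase gene, and Malt1 (0.98). Egln3 had geometric means of 298 in M354 Tregs and 127 in M176 Tregs, against 223 in WT Tregs, and 759 and 679 in M354- and M176-transduced cells, against 2330 in WT-transduced cells.

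For Bhlhe40 the closest genes were Plod2 (r = 0.98), a lysyl hydroxylase gene, Pgam1 (0.94), a glycolytic mutase gene, and Pik3ap1 (0.93). Pgam1 had geometric means of 1446 in M354 Tregs and 1020 in M176 Tregs, against 1157 in WT Tregs, and 1765 and 1557 in M354- and M176-transduced cells, against 2890 in WT-transduced cells. For Ciart they were Maff (0.93), Arrb1 (0.90) and Pfkfb3 (0.90), a regulator of glycolysis. Arrb1, a beta-arrestin gene, had geometric means of 694 and 748 in M354- and M176-transduced cells, against 1272 in WT-transduced cells.

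Dbp was most like Disp1 (r = 0.96), Tsc22d3 (0.95) and Rhoh (0.94). Disp1 had geometric means of 1507 in M354 Tregs and 2500 in M176 Tregs, against 2270 in WT Tregs. The closest genes to Cry2 were Fbxl12 (0.92), Adamts10 (0.90) and Tmc4 (0.88), and to Nr1d2 Dnajc24 (0.96), Trim34a (0.91) and Hddc3 (0.89). For Bhlhe41 they were Pim2, Mpzl2 and Maml3 (0.98 each), and for Bmal1, whose own range was narrow, Lrrc8d (0.81), Bckdhb (0.74) and Invs (0.74). Among the regulators themselves Bhlhe40 and Nfil3 had r = 0.93, Bhlhe40 and Ciart 0.53, and Bhlhe40 and Dbp -0.75.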

How the data were processed

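The deposited table holds linear intensity values of 20716 probe sets, which the authors made with Affymetrix Power Tools and RMA, per the submitters' processing notes; the sources used here give no versions, slides or scan dates. Gene names came from the platform annotation: 17703 probe sets name 1 gene, 1246 several and 1767 none, and the brightest singly named probe set stood for each of 16426 genes. Intensities were log2 transformed. R 4.3.3 and limma 3.58.1 fitted 1 mean per group over all 12 arrays with empirical Bayes moderation (6 residual and 10.9 prior degrees of freedom). Genes above their array's median on at least 2 arrays, 8918 in all, were tested, and p-values were Benjamini-Hochberg adjusted within each of 9 comparisons. The fit was tested on simulated data. The members and lists were chosen with earlier results of these data known. Every member is named in every comparison. Of the wider clock list up to 6 called genes are named per comparison and of the state lists up to 3, by size, plus the 3 most similar genes of each member. Nkg7, Cd8a, Cd8b1, Cd3d and Cd3e were named after their values were seen. Replicate numbers in the titles were checked for pairing by the correlation between groups of replicate 1 minus replicate 2, which ran from -0.55 to 0.25, so no block entered the fit. Alternatives were other normalizations, filters, an offset of 50, a covariate and each array left out.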

Additional observations from a re-analysis of the deposited data

Results flagged for a closer look

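The effect of a Foxp3 allele differed between Tregs and transduced cells, by limma's test of the difference itself, for these clock regulators. For M354 the differences of effects (Tregs minus transduced cells, log2) were 1.83 for Bhlhe40, 1.74 for Ciart and 1.23 for Nfil3. For M176 they were 2.04 for Ciart and 1.14 for Bhlhe40. Ciart passed the filter on dim genes through both WT-transduced arrays and M176 Treg replicate 1. WT-transduced cells enter both of its differences of effects, which are thus not independent of the filter. Bhlhe40 is the member whose M354 effect had opposite signs in the 2 systems with both passing, at 1.06 in Tregs and -0.77 in transduced cells. The genes were chosen with earlier results known, so these differences are descriptions.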

How the results depend on the processing

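No member called in the reported fit changed sign under any alternative, and 32 of 1371 alternative values changed sign, all of differences no larger than 0.203. With quantile normalization the members called numbered 2 between M176 and WT Tregs (Nr1d2 added) and 5 between M354 and M176 Tregs (Nr1d2 and Ciart added). With the small nucleolar RNA level as a covariate they numbered 0 for M176 against WT Tregs and 1 for the M176 effect between systems, and with a filter at percentile 75, which Ciart did not pass, the M176 effect also had 1. Under that filter Ciart, called there in the reported fit, also dropped out for each mutant against WT in transduced cells. The same held for the M354 effect and for WT Tregs against WT-transduced cells. The covariate separates the M176 Treg arrays from the rest, and the share of all genes called with it was 4.08%, beside 24.7% without it, for M176 against WT Tregs. Leaving out 1 array gave 0 to 1 members for M176 against WT Tregs, 2 to 3 for M354 against M176 Tregs, 2 to 3 for each mutant against WT in transduced cells, and the reported count elsewhere. With the replicate number as a block the counts stayed at 1, 1 and 3 in Tregs, 3, 3 and 0 in transduced cells, 3 and 2 for the effects and 3 for WT against WT; crossed pairing, added after seeing the data and fitted to the groups compared, gave 3 (M354 against WT), 0 (M354 against M176, both transduced) and 3 (WT against WT), with 8.08%, 2.24% and 43.1% of all genes called, beside 0.729%, 1.24% and 24.9% in the unpaired fit of the same groups. Of the 23 other clock genes, quantile and cyclic loess normalization called 9 and 5 between M354 and M176 Tregs, where they called 33.4% and 31.8% of all genes. Slide and scan date were not run, since the files give neither. The causes were not tested. Bhlhe41 lay below every array's median, and Ciart did so on 9 arrays, so signal over background limits both.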
